A study of Mus musculus with 40 samples.

Results

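Interleukins are secreted messengers between blood cells, and the genes named for them encode the ligands, the receptor chains that carry the signal into the cell, and decoys that hold it back. Members were all genes of the array whose symbol begins with Il followed by a digit, each measured by its brightest probe set, a group of short array probes for one transcript. They numbered 70 of 17097 genes, with 32 ligands, 31 receptor chains, 6 antagonists or decoys and 1 enzyme, Il4i1. The arrays held total RNA of J558LuM, a mouse plasmacytoma line, so all samples share the background of 1 tumour of antibody-secreting cells. In each group the cells were transduced with 1 construct: the empty vector MIR, wild-type PAX5 (PAX5-WT), PAX5-G183S, PAX5-G183V, PAX5-P80R or PAX5-Δ2-6. PAX5 is the transcription factor that sets B cell identity and is normally switched off when a B cell becomes a plasma cell. The P80R change lies in the paired DNA-binding domain and the G183 changes lie in the octapeptide motif, while for PAX5-Δ2-6 the labels give no more than its name. The question addressed here is how the constructs differ in their interleukin and receptor transcripts.

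There were 7 arrays each for the empty vector, wild-type PAX5 and both G183 constructs, and 6 each for PAX5-P80R and PAX5-Δ2-6. Each array came from a transduction with its own number, so the spread behind the p-values is that among transductions of 1 line. The groups of 7 lay on 2 plates, and the PAX5-P80R and PAX5-Δ2-6 arrays lay on plate 2 alone. RNA came from 2 isolation batches. The transduction numbers of MIR, PAX5-WT and PAX5-G183S ran in other series than those of PAX5-G183V, PAX5-P80R and PAX5-Δ2-6, apart from PAX5-G183S replicate 4. A fit with 3 series of numbers (1 to 9, 34 to 44 and 45 to 66) was tried, but within the last the groups still lie in separate runs (46 to 57, and 58 to 66 apart from that replicate). A comparison of MIR or PAX5-WT with a construct of the other runs cannot hold construct and run apart, as no run has both. Only PAX5-G183S replicate 4 crosses between the runs. For this reason PAX5-G183V and PAX5-P80R were also set against PAX5-Δ2-6 of their own series. Defining markers of the labelled line were present: 5 of 5 measured plasma cell genes (Irf4, Jchain, Prdm1, Tnfrsf17, Xbp1) lay at least 1 log2 unit above the array median in MIR, against 2 of 7 B cell, 2 of 7 T cell, 1 of 6 myeloid, 0 of 8 mast cell and 0 of 8 fibroblast genes. The B cell gene Ms4a1 had a mean of 3.79 in MIR and of 9.08, 8.77 and 8.76 in PAX5-WT, PAX5-G183S and PAX5-G183V, against 3.92 in PAX5-P80R and 3.72 in PAX5-Δ2-6. It was the only 1 of 7 measured B cell genes to pass the test given below against MIR, with those first 3 constructs. That is 14.3%, against 6.43%, 6.12% and 9.28% of all genes. The median log2 changes of the 7 genes were 0.03, 0.00 and -0.01.

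Interleukin receptors work as shared parts. Most class I chains pass the signal to JAK kinases and STAT factors, which SOCS proteins switch off again, and chains are reused: gp130 (Il6st) serves IL-6 and IL-27, and IL-4Rα (Il4ra) pairs with IL-13Rα1 (Il13ra1) to bind IL-4 or IL-13. The IL-1 family signals through TIR domains and MyD88, and the IL-17 family through receptors that share the IL-17RA chain. IL-6 is known as a growth factor of plasmacytomas, and IL-5 and IL-10 act on antibody-secreting B lineage cells.

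All values below are log2 signals as deposited, 1 unit being a doubling. Few members were bright. The array medians averaged 4.24, and 13 of the 70 members had a mean at least 1 unit above that: 4 ligands (Il10, Il17b, Il18, Il23a) and 9 receptor chains (Il10rb, Il12rb1, Il13ra1, Il17ra, Il17rd, Il1rap, Il5ra, Il6ra, Il6st). No antagonist or decoy reached that mark. The growth factor gene Il6 itself had group means of 3.05 to 3.15, and Il10ra, the chain that pairs with Il10rb for IL-10, had 3.43 to 3.48, so both lay under the array median in every group. Il7r and Il2rg have no probe set of a single symbol in the annotation used and were not analysed here. A probe set's level depends on its probes as well as on the transcript, so levels are compared between arrays and not between genes. In RNA of whole cultures, a change in a few cells and a smaller one in all cells cannot be told apart.

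A gene was called where limma's p-value lay under 0.05 after Benjamini-Hochberg adjustment across the 17097 genes. Of the 70 members 15 were called in at least 1 of 11 comparisons, 9 of them bright by the mark above and 6 (Il15, Il16, Il17re, Il1f9, Il27ra, Il4ra) dimmer. The other 55, of which 51 lay under the mark, were called in none. Against MIR their differences lay between -0.40 and 0.44. The share of all genes called in at least 1 of the 11 comparisons is not given here, so the count of 15 has no background to be read against. In the single comparisons with MIR the shares of members called lay near those of all genes. Against MIR, PAX5-WT had 4 members higher and 2 lower (8.57%, against 6.43% of all genes; 3.59% higher and 2.84% lower), and PAX5-G183S also had 4 higher and 2 lower (8.57%, against 6.12%; 3.69% and 2.43%). PAX5-G183V had 1 higher and 4 lower (7.14%, against 9.28%; 5.63% and 3.64%), and PAX5-P80R had 1 higher and 2 lower (4.29%, against 4.72%; 2.25% and 2.47%). The median difference from MIR over the 70 members was 0.01 for PAX5-WT and between -0.01 and 0.00 for the other constructs, against 0.00 to 0.01 over all genes. The list as a whole was therefore not set apart by its counts or medians, and the data on it are those of single genes.

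PAX5-Δ2-6 against MIR gave 0 of 70 members with limma, 10 of them with an unadjusted p under 0.05. Over all genes it gave 0 calls (0%), 1308 genes having an unadjusted p under 0.05, and limma with trend and robust settings also called no member. A fit with 3 transduction series in place of the isolation batches called 2 members, Il13ra1 and Il18, against 3.96% of all genes, so the absence of calls for PAX5-Δ2-6 changed with the batch term.

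**Figure D1:**
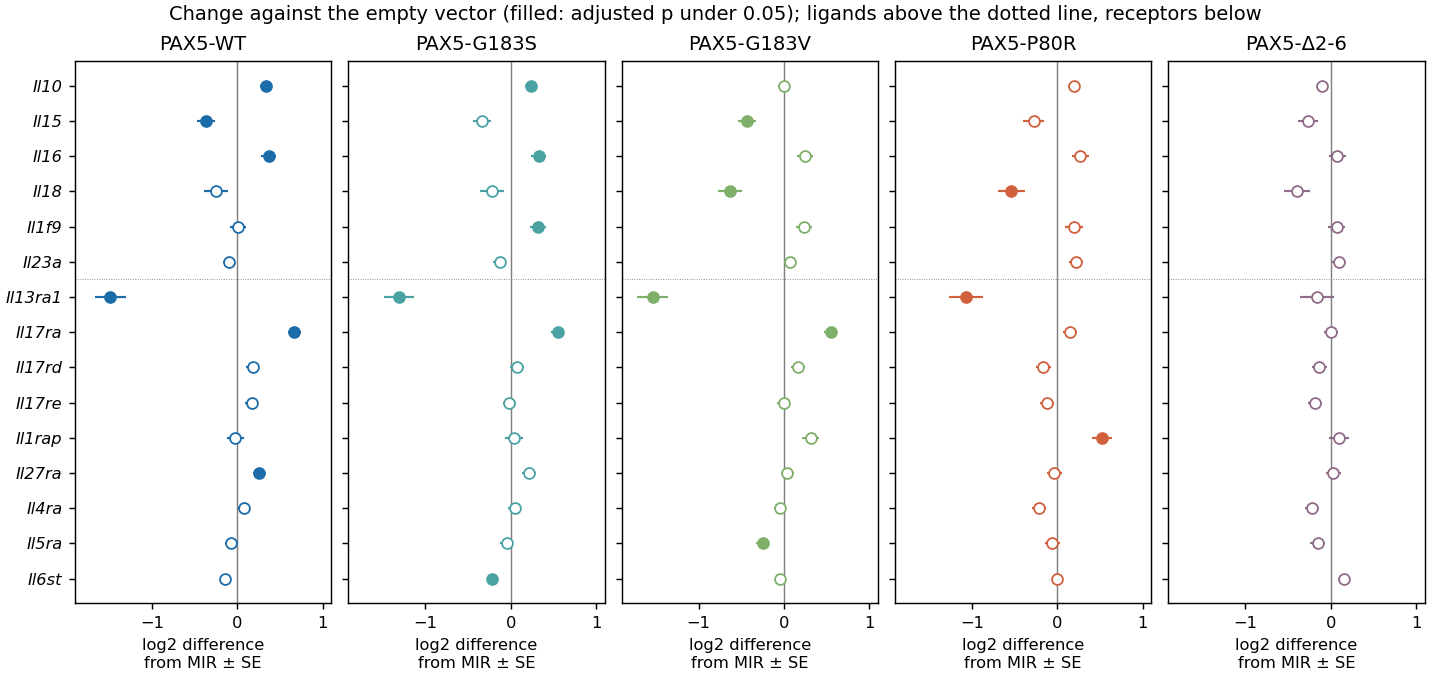
Log2 difference from MIR, with its standard error, of the 15 members called in any comparison (rows) for each construct (panels), ligands above the dotted line and receptor chains below. Filled points have an adjusted p under 0.05. Il13ra1 is filled and lowest in 4 panels, Il17ra is filled to the right of 0 in 3, and no point is filled for PAX5-Δ2-6.

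The member that fell furthest was Il13ra1. It encodes IL-13Rα1, which binds IL-13 weakly alone and tightly with IL-4Rα. Its 250 bases upstream of the annotated start (RefSeq, GRCm38.p6, chrX:36111858-36112107, + strand) are shown because this is the largest change among the members. Those of Il1rap (chr16:26581455-26581704, + strand, before a transcript start inside the gene's annotated span) are shown beside it because that receptor gene moved the other way with PAX5-P80R. Capitals mark GC boxes, GGGCGG or its reverse complement CCGCCC, and the last of the capital runs of Il13ra1 holds a pair of overlapping boxes.
Il13ra1: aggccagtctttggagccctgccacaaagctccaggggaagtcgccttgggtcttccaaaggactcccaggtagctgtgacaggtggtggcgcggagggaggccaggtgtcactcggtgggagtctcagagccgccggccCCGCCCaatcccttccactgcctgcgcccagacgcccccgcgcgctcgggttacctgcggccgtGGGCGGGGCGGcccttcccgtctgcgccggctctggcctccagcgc
Il1rap: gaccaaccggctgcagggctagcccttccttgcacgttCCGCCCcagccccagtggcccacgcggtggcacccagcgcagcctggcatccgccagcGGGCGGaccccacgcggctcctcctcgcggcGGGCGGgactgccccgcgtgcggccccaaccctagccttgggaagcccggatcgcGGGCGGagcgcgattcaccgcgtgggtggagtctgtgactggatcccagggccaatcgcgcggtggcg
Both windows are rich in G and C, 70.8% for Il13ra1 and 74.4% for Il1rap against a median of 52.4% over 32851 windows of the same length, with 21 and 30 CpG steps. Il13ra1 holds 3 GC boxes and Il1rap 4, a motif that 32.7% of all windows hold at least once on either strand. The letters GCGTGAC, part of sites that paired-domain PAX proteins bind, stand on neither strand of either window, and 1.78% of all windows hold them. The STAT letters TTCNNNGAA are absent from both windows, and 7.02% of all windows hold them. Of the 15 called members 10 matched a window by symbol. None of these windows holds GCGTGAC, and only that of Il1f9 holds TTCNNNGAA. Such matches describe letters and show no binding.

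Il13ra1 was high with MIR and PAX5-Δ2-6 and low with the other constructs. The lowest, median and highest arrays were 7.28, 7.51 and 7.72 with MIR and 7.29, 7.37 and 7.59 with PAX5-Δ2-6. They were 5.30, 6.21 and 6.51 with PAX5-WT, 5.76, 6.27 and 6.53 with PAX5-G183S, and 5.44, 5.76 and 6.61 with PAX5-G183V. With PAX5-P80R they were 5.97, 6.42 and 7.01. No array of these 4 constructs reached the lowest MIR array. Against MIR Il13ra1 fell by 1.49 ± 0.18 with PAX5-WT (SE, n = 7 and 7; limma adjusted p = 1.2e-07), which is 2.80-fold, by 1.31 ± 0.18 with PAX5-G183S, by 1.54 ± 0.18 with PAX5-G183V and by 1.07 ± 0.20 with PAX5-P80R (n = 6 and 7; limma adjusted p = 0.00059). With PAX5-Δ2-6 the difference was -0.16 ± 0.20, with a 95% interval from -0.56 to 0.24. With 3 transduction series in place of the isolation batches that difference was -0.64 and passed (limma adjusted p = 0.033), while within isolation batches 1 and 2 alone it was -0.14 and -0.26 and did not. Between PAX5-P80R and PAX5-WT the difference was 0.42 ± 0.20 (95% interval 0.02 to 0.82; limma adjusted p = 0.24), which did not pass. In isolation batch 1 alone this difference was 0.82 (limma adjusted p = 0.043) and in batch 2 alone -0.09 (limma adjusted p = 0.82), so its direction was not the same in both.

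Within the runs of transduction numbers that PAX5-Δ2-6 shares, both constructs lay below it. Against PAX5-Δ2-6 Il13ra1 changed by -1.38 ± 0.20 with PAX5-G183V and by -0.91 ± 0.19 with PAX5-P80R (limma adjusted p = 0.0028), in both without overlap between arrays. In batches 1 and 2 alone these changes were -0.78 and -1.78 for PAX5-G183V and -0.65 and -1.16 for PAX5-P80R, and only those of batch 2 passed. The isolation batches differed in the size of the fall. In batches 1 and 2 alone the changes against MIR were -1.60 and -1.33 for PAX5-WT, -1.43 and -1.26 for PAX5-G183S, -0.92 and -2.04 for PAX5-G183V, and -0.79 and -1.43 for PAX5-P80R. All but that of PAX5-P80R in batch 1 (limma adjusted p = 0.0864) passed in each batch. For PAX5-G183V the difference between the batches passed its own test (limma adjusted p = 0.0156), as did 1.04% of all genes. No other called member passed this test of the batches for any construct, which 0.0292% of all genes passed with PAX5-WT, 0% with PAX5-G183S, 0.696% with PAX5-P80R and 0.211% with PAX5-Δ2-6.

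Il13ra1 has 5 probe sets on the array. The 4 brighter ones, with means of 6.58, 6.58, 6.49 and 5.34, fell with all of PAX5-WT, PAX5-G183S, PAX5-G183V and PAX5-P80R, by 0.73 to 1.54 in size (changes from -1.54 to -0.73). The fifth, with a mean of 3.99, fell by 0.40 with PAX5-G183S and by 0.40 with PAX5-G183V and did not pass with PAX5-WT (-0.20) or PAX5-P80R (-0.29). The label of 1 of the brighter sets marks it as shared between similar transcripts.

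**Figure D2:**
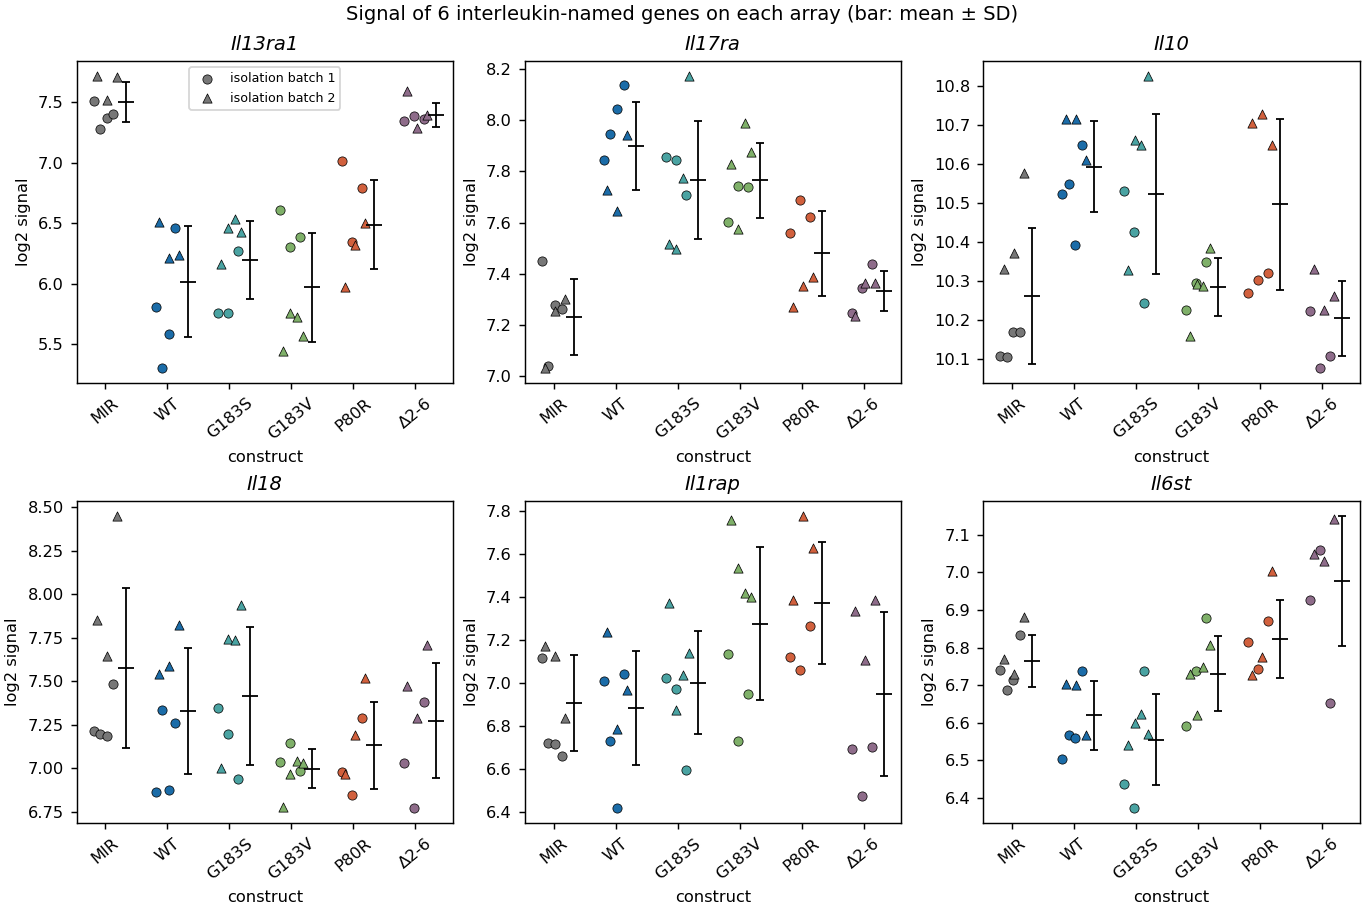
Log2 signal on every array (points; circles for isolation batch 1, triangles for batch 2) of 6 members by construct, with the mean and SD of each group as a bar. For Il13ra1 the MIR and PAX5-Δ2-6 arrays lie at 7.28 or above and all others at 7.01 or below, and for Il17ra the PAX5-WT, PAX5-G183S and PAX5-G183V arrays lie at 7.50 or above and the MIR and PAX5-Δ2-6 arrays at 7.45 or below.

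The partner chain of the type II IL-4 receptor was not called against MIR. Il4ra had a mean of 4.00 with MIR, near the array median. Against PAX5-WT, whose arrays were 3.92, 4.10 and 4.21 at the lowest, median and highest, it fell by 0.30 ± 0.08 with PAX5-P80R (limma adjusted p = 0.016) and by 0.30 ± 0.08 with PAX5-Δ2-6 (limma adjusted p = 0.014). The PAX5-P80R arrays were 3.69, 3.85 and 3.97 and the PAX5-Δ2-6 arrays 3.49, 3.87 and 3.99. Both groups overlapped PAX5-WT, and both calls were lost without batch terms. Without PAX5-Δ2-6 replicate 6 the change with PAX5-Δ2-6 was -0.23 (limma adjusted p = 0.06).

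The member that rose furthest was Il17ra, the chain shared by the receptors of the IL-17 family. Its lowest, median and highest arrays were 7.03, 7.26 and 7.45 with MIR and 7.24, 7.35 and 7.44 with PAX5-Δ2-6. They were 7.64, 7.94 and 8.14 with PAX5-WT, 7.50, 7.78 and 8.17 with PAX5-G183S, and 7.58, 7.74 and 7.99 with PAX5-G183V. The PAX5-P80R arrays lay between, at 7.27, 7.47 and 7.69. None of the arrays of PAX5-WT, PAX5-G183S and PAX5-G183V overlapped MIR or PAX5-Δ2-6. Against MIR Il17ra rose by 0.67 ± 0.07 with PAX5-WT (SE, n = 7 and 7; limma adjusted p = 2.1e-08), which is 1.59-fold, by 0.55 ± 0.07 with PAX5-G183S and by 0.55 ± 0.07 with PAX5-G183V. With PAX5-P80R the difference was 0.15 ± 0.08 (95% interval -0.02 to 0.32; limma adjusted p = 0.38), and with PAX5-Δ2-6 it was 0.00 ± 0.08 (95% interval -0.16 to 0.17). PAX5-P80R lay below PAX5-WT by a change of -0.52 ± 0.08 (limma adjusted p = 5.4e-05), a difference tested directly, although a PAX5-P80R array reached the lowest PAX5-WT array. Against PAX5-Δ2-6, PAX5-G183V was higher by 0.54 ± 0.08 without overlap.

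Both isolation batches showed the rise of Il17ra: 0.74 and 0.58 with PAX5-WT, 0.55 and 0.50 with PAX5-G183S, and 0.45 and 0.58 with PAX5-G183V, all past the test. With PAX5-P80R the batch values were 0.34 and -0.05, neither past it. The second probe set of Il17ra, with a mean of 5.67, rose by 0.61 ± 0.10 with PAX5-WT, 0.55 ± 0.10 with PAX5-G183S and 0.57 ± 0.10 with PAX5-G183V. The genes most like Il17ra over the 40 arrays, by Pearson's r after batch and plate effects were removed, were Mgarp (0.91), Dusp14 (0.90), Slc44a2 (0.89), Camk2d (0.89) and Fcgr2b (0.89). Within groups the same correlations were 0.26, 0.51, 0.30, 0.16 and 0.05, so the likeness lies mostly in the group means.

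Other IL-17 receptor chains were called only against PAX5-WT. Il17rd, an IL-17 receptor family member also known as Sef, had PAX5-WT arrays of 6.86, 6.95 and 7.32, against 6.50, 6.69 and 6.80 with PAX5-P80R and 6.53, 6.69 and 6.91 with PAX5-Δ2-6. Against PAX5-WT it fell by 0.34 ± 0.09 with PAX5-P80R, without overlap, and by 0.31 ± 0.09 with PAX5-Δ2-6 (limma adjusted p = 0.016 and 0.026). PAX5-WT replicate 4 was the highest array at 7.32. Without it the change with PAX5-P80R was -0.27 (limma adjusted p = 0.071), and that with PAX5-Δ2-6 was -0.25 (limma adjusted p = 0.12). Leaving out PAX5-Δ2-6 replicate 3, 5 or 6 also ended the latter call, with changes of -0.30 to -0.27. Il17re, the chain that binds IL-17C, fell against PAX5-WT by 0.29 ± 0.09 with PAX5-P80R and by 0.35 ± 0.09 with PAX5-Δ2-6 (limma adjusted p = 0.033 and 0.0063), in overlapping groups between 4.91 and 5.63. The call with PAX5-P80R was lost without PAX5-WT replicate 1, 3 or 7 or PAX5-P80R replicate 1, 2 or 6, with changes of -0.29 to -0.23. Under 12 other planned settings the Il17re calls held in 2 with PAX5-P80R and in 6 with PAX5-Δ2-6. Those of Il17rd held in 7 and 6. Each of these genes has 2 probe sets, and all of these calls were lost with the mean of both. The ligand gene Il17b, bright at group means of 7.65 to 7.85, was called nowhere.

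**Figure D3:**
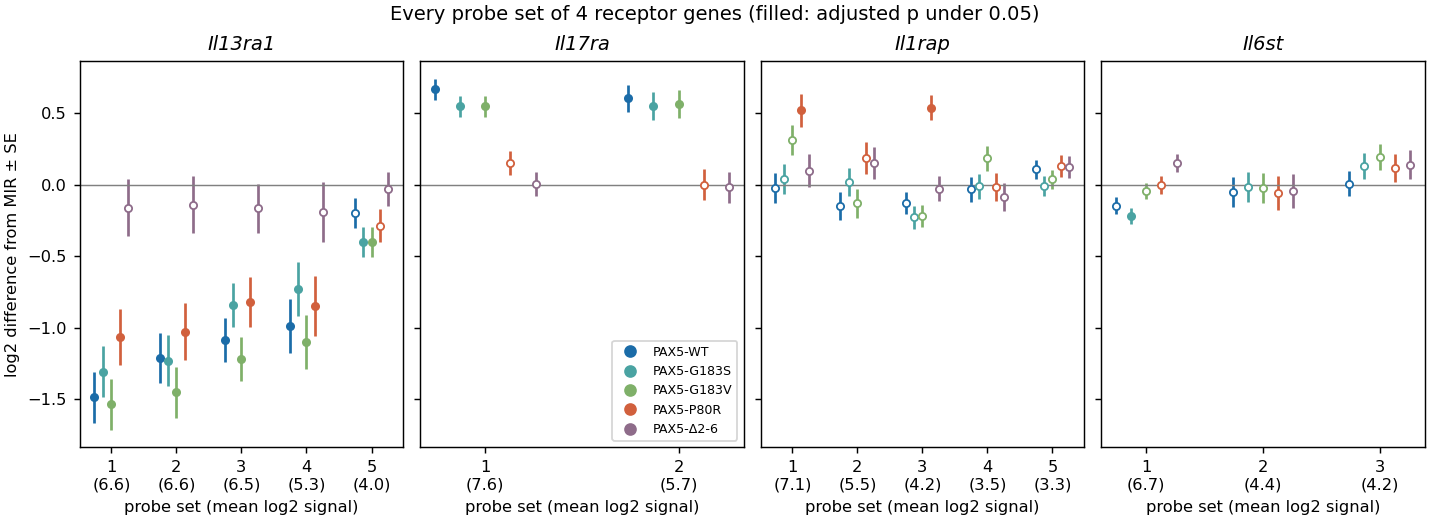
Log2 difference from MIR with its standard error for every probe set of Il13ra1, Il17ra, Il1rap and Il6st, ordered by mean signal (in brackets), one point per construct, filled where the adjusted p lay under 0.05. The 4 brightest Il13ra1 sets and both Il17ra sets move together. In Il1rap 2 of 5 sets are filled for PAX5-P80R, and in Il6st only the brightest set is filled.

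Il1rap encodes the accessory chain of the IL-1, IL-33 and IL-36 receptors, without which they do not signal. Its lowest, median and highest arrays were 7.06, 7.33 and 7.78 with PAX5-P80R and 6.73, 7.40 and 7.76 with PAX5-G183V, against 6.66, 6.84 and 7.17 with MIR, 6.42, 6.97 and 7.24 with PAX5-WT, 6.60, 7.02 and 7.37 with PAX5-G183S, and 6.47, 6.90 and 7.39 with PAX5-Δ2-6. The ranges overlapped. It rose with PAX5-P80R by 0.52 ± 0.12 against MIR (SE, n = 6 and 7; limma adjusted p = 0.0038), by 0.55 ± 0.12 against PAX5-WT (limma adjusted p = 0.0018) and by 0.42 ± 0.11 against PAX5-Δ2-6 (limma adjusted p = 0.022). The last call was lost without PAX5-P80R replicate 5 or 6 or PAX5-Δ2-6 replicate 2, with changes of 0.37 to 0.41. With PAX5-G183V the difference from MIR was 0.31 ± 0.10 (limma adjusted p = 0.0504), which passed at 0.49 with 3 transduction series in place of the batches and at 0.51 in isolation batch 2 alone. The changes with PAX5-P80R in isolation batches 1 and 2 were 0.44 (limma adjusted p = 0.21) and 0.65 (limma adjusted p = 0.018). Of the other 4 probe sets of Il1rap, a dim one with a mean of 4.22 rose with PAX5-P80R by 0.54 ± 0.09, while the others differed by -0.02 to 0.19 and did not pass.

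Other genes of the IL-1 pathway were measured too. Sigirr, which encodes a TIR-domain inhibitor of IL-1 and Toll-like receptors, had arrays of 8.24, 8.38 and 8.72 with PAX5-P80R against 8.03, 8.06 and 8.22 with MIR, without overlap, and rose by 0.33 ± 0.07 (limma adjusted p = 0.0015). Tnfaip3, which encodes the NF-κB inhibitor A20, rose by 0.33 ± 0.09 with PAX5-WT (limma adjusted p = 0.012), where Irak1, a kinase of the pathway, rose by 0.14 ± 0.04. Of 17 measured genes of IL-1 and TIR signalling, 2 rose with PAX5-WT and 1 with PAX5-P80R, none fell, and none passed with PAX5-G183S, PAX5-G183V or PAX5-Δ2-6 (5, 5 and 1 with an unadjusted p under 0.05 by limma). The shares called were 11.8% and 5.88%, against 6.43% and 4.72% of all genes. Among myeloid markers 1 of 6 rose with PAX5-P80R (Elane, by 0.22, from a mean of 3.44 to 3.60), or 16.7% against 4.72% of all genes. The mean level of the myeloid list was 3.67 to 3.88 over the MIR arrays and 3.63 to 3.90 over those of PAX5-P80R.

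Il18 and Il10 were the bright ligand genes called against MIR. Il18, an IL-1 family cytokine made as a precursor that caspase-1 cleaves, had arrays of 7.19, 7.48 and 8.45 with MIR, 6.78, 7.03 and 7.15 with PAX5-G183V and 6.85, 7.08 and 7.52 with PAX5-P80R. No PAX5-G183V array reached the lowest MIR array. It fell by 0.63 ± 0.14 with PAX5-G183V (limma adjusted p = 0.0023) and by 0.54 ± 0.16 with PAX5-P80R (limma adjusted p = 0.038), and the difference with PAX5-Δ2-6, from the same series, was -0.40 ± 0.16 (limma adjusted p = 0.55). Against PAX5-Δ2-6 the differences were -0.24 ± 0.16 for PAX5-G183V and -0.14 ± 0.15 for PAX5-P80R, neither past the test. The MIR arrays themselves averaged 7.27 in isolation batch 1 and 7.98 in isolation batch 2. In the 2 batches Il18 changed by -0.22 and -1.09 with PAX5-G183V and by -0.20 and -1.01 with PAX5-P80R, and only the values of batch 2 passed. With 3 transduction series in place of the batches the changes were -0.85 with PAX5-G183V, -0.78 with PAX5-P80R and -0.64 with PAX5-Δ2-6, and all 3 passed. Without MIR replicate 7, the change with PAX5-P80R was -0.39 (limma adjusted p = 0.19), and leaving out MIR replicate 4 or 5, or PAX5-P80R replicate 1, 2, 4 or 5, also ended that call, with changes between -0.54 and -0.47.

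Il10, whose product holds back inflammation and supports B cell survival and antibody secretion, had the brightest probe set of the list. Its arrays were 10.10, 10.17 and 10.58 with MIR, 10.39, 10.61 and 10.72 with PAX5-WT, and 10.24, 10.53 and 10.83 with PAX5-G183S. With PAX5-G183V they were 10.16, 10.29 and 10.39, with PAX5-P80R 10.27, 10.48 and 10.73, and with PAX5-Δ2-6 10.08, 10.22 and 10.33. The PAX5-WT arrays lay above all of PAX5-G183V and PAX5-Δ2-6 and overlapped those of MIR. Il10 rose against MIR by 0.33 ± 0.06 with PAX5-WT (limma adjusted p = 0.00044) and by 0.23 ± 0.06 with PAX5-G183S (limma adjusted p = 0.018), and with PAX5-G183V the difference was 0.00 ± 0.06 (95% interval -0.13 to 0.12). Without PAX5-G183S replicate 1 or 7 the change with PAX5-G183S was 0.21 or 0.20 and did not pass (limma adjusted p = 0.065 and 0.055). The PAX5-G183S call was also lost without batch terms, in each isolation batch alone, on plate 2 alone and in a fit of the 2 groups alone. The PAX5-WT call was lost in isolation batch 2 alone (change 0.25, limma adjusted p = 0.27) and on plate 2 alone.

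The comparisons between PAX5 constructs gave few members for the G183 pair. PAX5-G183S against PAX5-WT gave 0 of 70 with limma, against 0.076% of all genes (0.00585% higher and 0.0702% lower), and 0 with trend and robust settings. An unadjusted p under 0.05 by limma was reached by 5 of the 70 members and by 942 of all 17097 genes. PAX5-G183V against PAX5-WT gave 1 lower, against 0.146% of all genes (0.0526% higher and 0.0936% lower): Il10, which fell by 0.34 ± 0.06 (limma adjusted p = 0.013). That call was lost in a fit of the 2 groups alone, in isolation batch 1 alone (change -0.24), without PAX5-WT replicate 6 (change -0.33) and without PAX5-G183V replicate 4 (change -0.31). PAX5-G183S and PAX5-G183V, which replace the same glycine by serine or valine, were not compared with each other.

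PAX5-P80R and PAX5-Δ2-6 differed from PAX5-WT in 7 members each, 2 higher and 5 lower in both (10%, against 6.31% of all genes for PAX5-P80R, 2.67% higher and 3.63% lower, and 6.99% for PAX5-Δ2-6, 2.81% higher and 4.18% lower). With PAX5-P80R, Il1rap and Il23a rose, and Il17ra, Il17rd, Il17re, Il4ra and Il27ra fell. With PAX5-Δ2-6, Il13ra1 and Il6st rose, and Il10, Il17ra, Il17rd, Il17re and Il4ra fell. Il13ra1 rose with PAX5-Δ2-6 by 1.33 ± 0.20 (0.85 with 3 transduction series in place of the batches, also called), Il10 fell by 0.43 ± 0.07 and Il17ra fell by 0.66 ± 0.08, each without overlap between arrays. These 2 comparisons share the PAX5-WT arrays. Against PAX5-Δ2-6, PAX5-G183V had 1 member higher (Il17ra) and 1 lower (Il13ra1), 2.86% against 4.98% of all genes (3.35% higher, 1.64% lower). PAX5-P80R had 2 higher (Il10 by 0.29 ± 0.07 and Il1rap) and 1 lower (Il13ra1), 4.29% against 3.3% (1.95% higher, 1.36% lower).

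Within single isolation batches the counts moved in both directions. Against MIR, batches 1 and 2 alone gave 3 and 2 members for PAX5-WT (4.74% and 1.34% of all genes), 4 and 2 for PAX5-G183S (3.78% and 1.87%), 2 and 6 for PAX5-G183V (1.77% and 8.17%) and 0 and 3 for PAX5-P80R (0.912% and 3.94%). The 6 with PAX5-G183V in batch 2 exceed the 5 of both batches together.

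**Figure D4:**
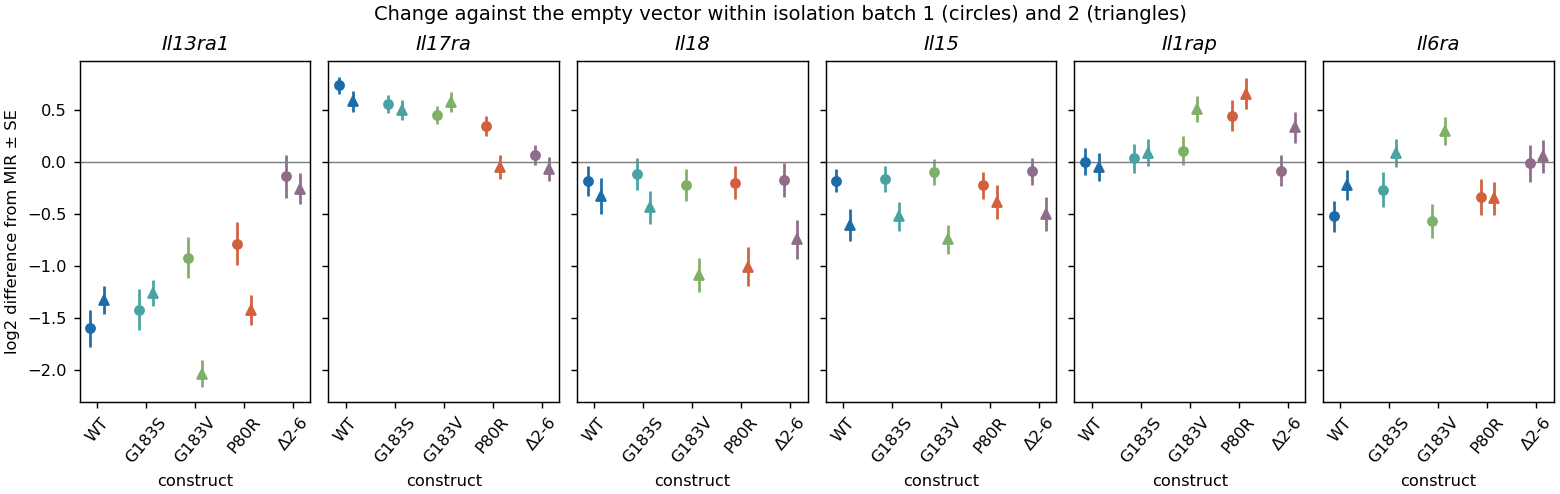
Log2 difference from MIR with its standard error within isolation batch 1 (circles) and batch 2 (triangles) for 6 members and each construct. Il17ra lies above 0 in both batches with PAX5-WT, PAX5-G183S and PAX5-G183V. Il18 and Il15 lie lower in batch 2 than in batch 1 with every construct, Il18 reaches -1.09 with PAX5-G183V, and Il6ra with PAX5-G183V lies at -0.57 in batch 1 and 0.29 in batch 2.

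Il6st encodes the signal chain gp130. Its arrays were 6.69, 6.74 and 6.88 with MIR, 6.50, 6.57 and 6.74 with PAX5-WT, 6.37, 6.57 and 6.74 with PAX5-G183S and 6.65, 7.04 and 7.14 with PAX5-Δ2-6. It fell by 0.22 ± 0.06 with PAX5-G183S against MIR (limma adjusted p = 0.01) and rose by 0.30 ± 0.06 with PAX5-Δ2-6 against PAX5-WT (limma adjusted p = 0.0013), in overlapping groups. A dim probe set of Il6st, shared between transcripts, lay at 0.13 ± 0.09 with PAX5-G183S against MIR and did not pass. With the mean of the 3 probe sets of Il6st, both calls were lost. That with PAX5-G183S was also lost in each isolation batch alone and on plate 2 alone. That with PAX5-Δ2-6 was also lost in isolation batch 1 alone, in a fit of the 2 groups alone and with the replicate number as a block. Il6ra, the IL-6 binding chain, had arrays of 5.23, 5.47 and 5.81 with MIR and 4.92, 5.05 and 5.35 with PAX5-WT, a difference of -0.40 ± 0.13 that did not pass (limma adjusted p = 0.06). With PAX5-G183V its difference from MIR was -0.57 in batch 1 and 0.29 in batch 2, and these differed from each other (limma adjusted p = 0.0463). Il27ra, which pairs with gp130 to bind IL-27, rose from arrays of 3.88, 4.27 and 4.36 with MIR to 4.28, 4.46 and 4.60 with PAX5-WT, by 0.26 ± 0.08 (limma adjusted p = 0.045). Without MIR replicate 2, its lowest array, the change was 0.21 (limma adjusted p = 0.14), and leaving out any of 10 other MIR or PAX5-WT arrays also ended the call, with changes of 0.25 to 0.27. The call against MIR was lost as well when the arrays were centred on their medians. Il27ra fell by 0.29 ± 0.09 with PAX5-P80R against PAX5-WT (limma adjusted p = 0.041), a call lost without PAX5-WT replicate 2, 4, 5, 6 or 7 or PAX5-P80R replicate 1, 3 or 4, with changes of -0.30 to -0.25.

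The remaining ligand genes were dim or changed little. Il16, a cytokine that binds CD4, had arrays of 4.12, 4.49 and 4.69 with MIR, 4.51, 4.84 and 4.96 with PAX5-WT and 4.42, 4.68 and 5.01 with PAX5-G183S, and rose by 0.37 ± 0.09 and 0.33 ± 0.09 (limma adjusted p = 0.0057 and 0.015), in overlapping groups. The call with PAX5-G183S was lost without MIR replicate 2 or 6 or PAX5-G183S replicate 1, with changes of 0.27 to 0.29. Il15, which supports NK and memory T cells, had arrays of 3.86, 4.20 and 4.79 with MIR, 3.70, 3.90 and 4.20 with PAX5-WT and 3.64, 3.89 and 4.09 with PAX5-G183V. It fell by 0.37 ± 0.11 with PAX5-WT (limma adjusted p = 0.031) and by 0.43 ± 0.11 with PAX5-G183V (limma adjusted p = 0.0062). Il15 also lay below MIR with PAX5-G183S (-0.34), PAX5-P80R (-0.28) and PAX5-Δ2-6 (-0.27), none of them called. Between PAX5-G183V and PAX5-Δ2-6 of its own series the difference was -0.17, also not called. Without MIR replicate 5 the change with PAX5-WT was -0.28 (limma adjusted p = 0.11), and leaving out MIR replicate 6 or 7 or PAX5-WT replicate 1, 6 or 7 also ended that call, with changes of -0.36 to -0.33. In isolation batches 1 and 2 alone the change was -0.18 and -0.61 (limma adjusted p = 0.51 and 0.058). The MIR arrays averaged 4.09 and 4.52 in these batches, and PAX5-WT 3.91 in both. The call with PAX5-G183V was lost in isolation batch 1 alone and on plate 2 alone. The receptor gene Il15ra, chosen after its values were seen, differed from MIR by 0.44 ± 0.15 with PAX5-G183S (limma adjusted p = 0.074), the largest difference among members never called. A second, dimmer probe set of Il15ra was called with PAX5-G183V, at 0.38 ± 0.10 (limma adjusted p = 0.01).

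Il1f9, which encodes IL-36γ, had arrays of 3.45, 3.73 and 3.83 with MIR and 3.82, 4.00 and 4.19 with PAX5-G183S, where it rose by 0.32 ± 0.09 (limma adjusted p = 0.03). The call was lost without MIR replicate 1 or 3 or PAX5-G183S replicate 1, 2, 3 or 7, with changes of 0.28 to 0.32. Il23a, the p19 subunit of IL-23, was higher with PAX5-P80R (7.18, 7.41 and 7.49) than with PAX5-WT (7.03, 7.07 and 7.32) by 0.32 ± 0.08 (limma adjusted p = 0.0087), with overlap, and was called against MIR with no construct. Il5ra, the IL-5 binding chain, had arrays of 7.71, 8.08 and 8.42 with MIR and 7.68, 7.88 and 8.18 with PAX5-G183V and fell by 0.25 ± 0.08 (limma adjusted p = 0.036). That call was lost without batch terms, in isolation batch 1 alone, on plate 2 alone and with 3 transduction series in place of the batches. It was also lost without MIR replicate 1, 4, 5, 6 or 7 or PAX5-G183V replicate 2, 5 or 7, with changes of -0.25 to -0.22. With PAX5-Δ2-6 Il5ra differed from MIR by -0.15, and PAX5-G183V differed from PAX5-Δ2-6 by -0.09, neither called. Il21r had group means of 3.82 to 3.98, under the array median, and was called nowhere.

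Genes that carry interleukin signals inward were counted the same way. Of 10 measured JAK and STAT genes Stat3 rose with PAX5-WT by 0.21 ± 0.06 and with PAX5-G183V by 0.20 ± 0.06, Stat5a rose with PAX5-G183V by 0.41 ± 0.13, and none fell. None passed with PAX5-G183S, PAX5-P80R or PAX5-Δ2-6 (4, 2 and 0 with an unadjusted p under 0.05 by limma). The shares called were 10% with PAX5-WT and 20% with PAX5-G183V, against 6.43% and 9.28% of all genes. Stat5a also lay above MIR with PAX5-WT (0.35), PAX5-G183S (0.29), PAX5-P80R (0.29) and PAX5-Δ2-6 (0.27), none past the test. For Stat5a the difference of PAX5-G183V from PAX5-Δ2-6 was 0.14 ± 0.14 (limma adjusted p = 0.68). Of 16 feedback inhibitors 2 rose and 1 fell with PAX5-WT, 3 rose with PAX5-G183S and 2 with PAX5-G183V, and none passed with PAX5-P80R or PAX5-Δ2-6 (3 each with an unadjusted p under 0.05 by limma). The shares called were 18.8%, 18.8% and 12.5%, against 6.43%, 6.12% and 9.28% of all genes, and rest on 2 or 3 genes each. Socs4, of the SOCS family, had arrays of 7.07, 7.33 and 7.69 with MIR and 7.56, 7.67 and 8.03 with PAX5-WT, and rose by 0.35 ± 0.07, 0.33 ± 0.07 and 0.27 ± 0.07 with PAX5-WT, PAX5-G183S and PAX5-G183V. Against PAX5-WT it fell by 0.44 ± 0.08 with PAX5-P80R and by 0.68 ± 0.08 with PAX5-Δ2-6. Socs1, which blocks JAK kinases, rose by 0.33 ± 0.09 with PAX5-G183S and by 0.37 ± 0.09 with PAX5-G183V. It lay above MIR by 0.17, 0.14 and 0.22 with PAX5-WT, PAX5-P80R and PAX5-Δ2-6, none past the test. The difference of PAX5-G183V from PAX5-Δ2-6 in Socs1 was 0.15 ± 0.10 (limma adjusted p = 0.48). Ptpn6, the phosphatase SHP-1, rose by 0.27 ± 0.07 with PAX5-WT and by 0.35 ± 0.07 with PAX5-G183S, and Socs5 fell by 0.39 ± 0.12 with PAX5-WT.

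Of 23 measured cytokine and receptor genes with other names, 2 fell with each of PAX5-WT, PAX5-G183S and PAX5-G183V and none rose. That is 8.70% called, against 6.43%, 6.12% and 9.28% of all genes (2.84%, 2.43% and 3.64% lower). Ebi3, a subunit that IL-27 and IL-35 share, had arrays of 8.03, 8.20 and 8.56 with MIR and 7.63, 7.77 and 8.11 with PAX5-WT, with overlap. It fell by 0.38 ± 0.10, 0.43 ± 0.10 and 0.53 ± 0.10 with the 3 constructs. Ifnar2, a chain of the type I interferon receptor, fell by 0.28 ± 0.05, 0.20 ± 0.05 and 0.31 ± 0.05. Csf2rb encodes the β chain through which IL-3, IL-5 and GM-CSF signal. Its arrays were 8.89, 9.09 and 9.14 with PAX5-P80R, all above the MIR arrays of 8.44, 8.80 and 8.88. It was the 1 gene of this list to rise there, by 0.29 ± 0.07 (limma adjusted p = 0.0084), or 4.35% called against 4.72% of all genes. The PAX5-Δ2-6 arrays, from 8.79 to 8.94, overlapped those of PAX5-P80R, with a difference of 0.16 ± 0.07 (limma adjusted p = 0.26). With PAX5-WT, PAX5-G183S, PAX5-G183V and PAX5-Δ2-6 Csf2rb lay above MIR by 0.05, 0.19, 0.17 and 0.13, none past the test.

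Markers of other cells were measured beside these changes. Among T cell markers, 1 of 7 rose with PAX5-G183S, PAX5-G183V and PAX5-P80R (Cd6, by 0.37, 0.57 and 0.46) and 1 fell with PAX5-G183V (Cd8a, by 0.26), which makes 14.3%, 28.6% and 14.3% called, against 6.12%, 9.28% and 4.72% of all genes. The mean level of that list was 4.86 to 5.04 over the MIR arrays and 4.94 to 5.10, 4.94 to 5.09 and 4.93 to 5.02 over those of the 3 constructs. No mast cell or fibroblast marker passed against MIR with any construct (0 to 2 of 8 per comparison with an unadjusted p under 0.05 by limma). Of 5 plasma cell genes 1 fell with PAX5-WT and PAX5-G183S and 3 with PAX5-G183V, where Jchain fell by 0.63 ± 0.15, Tnfrsf17 by 0.38 ± 0.12 and Xbp1 by 0.15 ± 0.04. These are shares of 20%, 20% and 60%, against 2.84%, 2.43% and 3.64% of all genes lower. The part of these markers in the member changes was not tested.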

How the data were processed

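Total RNA of 40 cultures was measured on Affymetrix arrays after amplification with a 3′ kit, per the labels. The deposited values are log2 signals that the authors made with RMA, per the submitters' processing notes, and they were used without further scaling. RMA's version: not given in the sources used here. The median signal per array was 4.21 to 4.27, and the precision is set by how many arrays there are (median SE 0.0768 for PAX5-WT against MIR). A single gene is named by 28898 of the 45141 probe sets, several genes by 551 and no gene by 15692. The highest mean over all arrays chose the probe set of each of 17097 genes.

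R 4.3.3 with limma 3.58.1 fitted all 40 arrays with terms for group, plate and isolation batch. Each of 11 comparisons had its own Benjamini-Hochberg adjustment across the genes, with a threshold of 0.05. The batch by group term was tested for comparisons with MIR. The closest pair of arrays had r = 0.9969, and 0 columns were identical. Named members are the 15 called ones and a short list of receptors and ligands known in plasma cells. Members and lists were chosen with earlier results of these data known, so none is independent evidence. Sequences are RefSeq's (GRCm38.p6), matched by symbol. The procedure was tested on simulated data. Alternatives were other batch terms, single batches or plates, other scalings, filters and probe sets, and each array left out in turn. Probe sets other than the brightest were added after seeing the data.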

Additional observations from a re-analysis of the deposited data

Results flagged for a closer look

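Single arrays stood apart from the rest of their group in 9 of the 114 groups of arrays of named members that were examined, by Dixon's criterion, which chance meets in about 1 group in 20. Il13ra1 was at 7.59 in PAX5-Δ2-6 replicate 4, the others lying between 7.29 and 7.40. Il15 was at 3.827 in PAX5-Δ2-6 replicate 5 (others 3.98 to 4.07), Il4ra at 3.495 in PAX5-Δ2-6 replicate 6 (others 3.82 to 3.99) and Il23a at 7.176 in PAX5-P80R replicate 3 (others 7.40 to 7.49). Il17rd was at 7.316 in PAX5-WT replicate 4 (others 6.86 to 6.99). Il5ra was at 7.601 in PAX5-G183S replicate 3 (others 8.13 to 8.41), and in the same array Il6 was at 3.616 (others 2.96 to 3.18). In MIR replicate 2 Il27ra was at 3.883 (others 4.15 to 4.36) and Il6 at 2.899 (others 3.07 to 3.18).

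For PAX5-G183V against MIR the change differed between isolation batches in 2 named members, by the batch by group term of limma. For Il13ra1 batch 2 minus batch 1 was -1.115 (adjusted p = 0.0156), the fall being larger in batch 2 in all its arrays (5.44 to 5.76, against 6.31 to 6.61 in batch 1). For Il6ra it was 0.8637 (adjusted p = 0.0463), with PAX5-G183V arrays of 4.98 to 5.13 in batch 1 and 5.54 to 5.72 in batch 2. Over all genes 1.04% passed this term.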

How the results depend on the processing

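Of the changes called, those of Il13ra1 and Il17ra with PAX5-WT, PAX5-G183S and PAX5-G183V against MIR, and of Il10, Il13ra1 and Il17ra with PAX5-Δ2-6 against PAX5-WT, passed under all 12 other planned settings and without any 1 array. With 1 array left out, 1473 values for single genes kept their side of the threshold, 68 lost it and 9 gained it; under the other planned settings 1198 kept it, 120 lost it and 19 gained it, and on other probe sets 79 kept it, 23 lost it and 2 changed sign (Il6st with PAX5-G183S, 0.13, and Il1rap with PAX5-P80R against MIR, -0.017). Counts of members called moved by over 1.5 times as follows, and beyond fewer arrays in single batches and plates the cause was not tested. Isolation batch 1 alone gave 3 (PAX5-WT against MIR), 2 (PAX5-G183V against MIR), 0 (PAX5-P80R against MIR), 0 (PAX5-G183V against PAX5-WT), 3 (PAX5-P80R and PAX5-Δ2-6 against PAX5-WT) and 0 (PAX5-G183V and PAX5-P80R against PAX5-Δ2-6). Over all 17097 genes that setting called 810, 302, 156, 40, 488 and 588, and 200 and 92, in the same order. Isolation batch 2 alone gave 2 for PAX5-WT and PAX5-G183S against MIR, and 4 for PAX5-G183V, PAX5-P80R and PAX5-Δ2-6 against PAX5-WT. The counts over all genes there were 229 and 319, and 274, 737 and 706. Plate 2 alone gave 2 for PAX5-WT, PAX5-G183S and PAX5-G183V against MIR, and 0 for PAX5-G183V and 4 for PAX5-P80R against PAX5-WT. In each of these comparisons that setting also called fewer of all 17097 genes than the main fit did, so the drop was not particular to the members. With 3 transduction series in place of batches the count was 5 (PAX5-P80R against MIR), 2 (PAX5-Δ2-6 against MIR) and 3 (PAX5-G183V against PAX5-WT). Of all 17097 genes that setting called 1714, 677 and 1009, where the main fit called 807, 0 and 25. No batch terms gave 0 (PAX5-G183V) and 3 (PAX5-P80R) against PAX5-WT, and 4 (PAX5-G183V) and 1 (PAX5-P80R) against PAX5-Δ2-6. The matching counts over all genes were 4 and 697, and 723 and 337. Fits of the 2 groups alone gave 0 (PAX5-G183V), 2 (PAX5-P80R) and 3 (PAX5-Δ2-6) against PAX5-WT, and 18, 275 and 576 of all genes. Leaving out dim genes, or trend and robust settings, gave 4 for PAX5-G183V against PAX5-Δ2-6. Those settings called 1086 of 8549 and 935 of 17097 genes. With 1 array left out the counts ranged over 4 to 6 (PAX5-WT), 4 to 7 (PAX5-G183S), 4 to 6 (PAX5-G183V), 2 to 4 (PAX5-P80R) and 0 to 0 (PAX5-Δ2-6) against MIR, over 0 to 0 (PAX5-G183S), 0 to 1 (PAX5-G183V), 5 to 7 (PAX5-P80R) and 5 to 8 (PAX5-Δ2-6) against PAX5-WT, and over 2 to 4 for both PAX5-G183V and PAX5-P80R against PAX5-Δ2-6.

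Replicate numbers did not pair the arrays. Deviations from the group means had a median r of -0.0363 over 96 pairs of one number (-0.223 to 0.194) and of 0.0032 over 570 pairs of different numbers. For 5 of 40 arrays the mean correlation with arrays of other groups was highest for their own number. With the replicate number as a block, against MIR PAX5-G183V had 8 members called and PAX5-P80R had 0, and the counts were 0 for PAX5-G183V, 1 for PAX5-P80R and 4 for PAX5-Δ2-6 against PAX5-WT. Of all 17097 genes the same fit called 1557 and 173 against MIR, and 16, 202 and 379 against PAX5-WT.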
